A study of Mus musculus with 6 samples.

Results

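Thbs1, the gene of the matrix protein thrombospondin 1, was examined together with 8 genes that act around it: Cd47 and Sirpa, and the transforming growth factor beta (TGF-beta) pathway genes Tgfb1, Tgfbr1, Tgfbr2, Smad3, Smad7 and Skil. These 9 genes were chosen by symbol among the 46983 genes of a table of read counts, and all 9 were measured well enough to enter the fit over 16115 genes. The libraries came from bone marrow derived macrophages of C57BL/6 mice, 3 from wild-type mice (WT) and 3 from mice without AEG-1 (AEG-1 knockout, KO). The gene of AEG-1 is Mtdh. Marrow from the femur was grown for 7 days with 20% L929 conditioned medium, a source of macrophage growth factor, and 10% serum, and no group received a treatment. The labels do not say which part of Mtdh was deleted, in which cells, or whether replicates were separate animals, so the spread between libraries may be technical. Thbs1 was taken up because its level differed between the genotypes in an earlier look at these libraries, and the others for their roles beside it. The KO against WT values of the 9 genes are therefore given as a description, with no p-value, while the other genes of the pathway were tested. The lists of those other genes were also chosen with earlier results of these data known.

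Thrombospondin 1 is a large secreted glycoprotein that platelets store and that macrophages and stromal cells also make. It binds CD47, CD36, integrins and proteoglycans on cells, and it can free TGF-beta from the latent complex in which that cytokine is secreted. CD47 is also the ligand of SIRPA, an inhibitory receptor of macrophages that restrains the uptake of living cells by recruiting the phosphatases SHP-1 and SHP-2. Active TGF-beta binds TGFBR2, which brings in and phosphorylates TGFBR1, which in turn phosphorylates SMAD2 and SMAD3. SMAD7 and SnoN, the protein of Skil, restrain the signal, and their genes are among those that TGF-beta switches on.

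Total counts per library ran from 42548170 to 58947230. The targeted gene Mtdh had 11560 to 14849 reads in the WT libraries and 15 to 22 reads in the KO libraries, so each library carried the Mtdh level of its label. All 8 defining macrophage markers were present in every library, with a summed level of 17867 to 18373 CPM in WT and 18246 to 18975 CPM in KO (CPM, counts scaled to library size by the trimmed mean of M values, TMM), and of the 8 markers 2 rose and 1 fell. Over all genes, 1023 of 16115 (6.35%) passed the quasi-likelihood test of edgeR at a p of 0.05 after Benjamini-Hochberg (BH) adjustment, of which 533 (3.31%) were higher and 490 (3.04%) were lower in KO. That count was 441 without WT replicate 2 and 380, 667 and 606 without KO replicates 2, 1 and 3. The 3 KO values lay wholly above or wholly below the 3 WT values in 26.8% of tested genes, and wholly above in 13.9%.

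The sequences below are shown because they bear on what a read of these genes can be assigned to and on how the start sites of ligand and receptors differ. Thbs1 lies on GRCm38 chromosome 2, and a noncoding gene on the opposite strand, Gm29233, runs across its exons 19 and 20 of 22. The kit is not described as marking strand, so whether reads from these stretches can be told apart by strand is not known. The coding bases of Thbs1 that Gm29233 shares are the last 89 of exon 19 and all 98 of exon 20 (GENCODE, GRCm38), written 5′ to 3′ on the plus strand.
Thbs1 exon 19, chr2:118123451-118123539: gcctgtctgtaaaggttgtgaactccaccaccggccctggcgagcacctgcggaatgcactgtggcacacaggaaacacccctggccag
Thbs1 exon 20, chr2:118123916-118124013: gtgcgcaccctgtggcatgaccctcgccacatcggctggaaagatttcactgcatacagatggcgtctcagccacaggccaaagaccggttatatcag
Gm29233 itself had 2, 0 and 1 reads across WT replicates 1 to 3 and 0, 9 and 3 reads across those of KO. These counts are uncertain, since how reads from the shared stretches were counted is not given. Thbs1 had 9917 to 24338 reads in the same libraries.

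Promoter sequence from RefSeq (GRCm38.p6) was examined for 5 of the 9 genes, Cd47, Tgfb1, Tgfbr1, Tgfbr2 and Smad3. The promoters of Thbs1, Sirpa, Smad7 and Skil were not examined. The 250 bases before the start site are printed for the ligand gene Tgfb1 and for both receptor genes, 5′ to 3′ on the gene's strand. Capitals mark a GC box (GGGCGG, the site of Sp1-type factors), a SMAD box (CAGAC) or an AP-1 site (TGACTCA), each searched on both strands, with no overlap between marked stretches.
Tgfb1, chr7:25686752-25687001, plus strand: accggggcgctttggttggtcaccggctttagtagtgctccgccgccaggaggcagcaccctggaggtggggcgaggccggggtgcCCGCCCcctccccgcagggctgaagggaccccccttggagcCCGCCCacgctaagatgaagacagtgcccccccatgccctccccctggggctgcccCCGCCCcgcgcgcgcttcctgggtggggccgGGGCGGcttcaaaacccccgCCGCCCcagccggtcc
Tgfbr1, chr4:47352972-47353221, plus strand: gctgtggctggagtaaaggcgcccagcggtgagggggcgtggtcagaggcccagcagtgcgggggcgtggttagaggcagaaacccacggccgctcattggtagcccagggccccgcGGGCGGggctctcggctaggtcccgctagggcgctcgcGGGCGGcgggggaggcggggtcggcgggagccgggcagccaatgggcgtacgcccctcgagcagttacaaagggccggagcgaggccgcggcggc
Tgfbr2, chr9:116175364-116175613, minus strand: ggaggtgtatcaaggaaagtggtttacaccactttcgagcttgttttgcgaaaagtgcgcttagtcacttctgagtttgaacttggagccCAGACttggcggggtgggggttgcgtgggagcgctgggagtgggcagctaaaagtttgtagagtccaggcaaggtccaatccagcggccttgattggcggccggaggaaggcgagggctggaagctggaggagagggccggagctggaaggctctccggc
The Tgfb1 window held 5 GC boxes and the Tgfbr1 window 2, while the Tgfbr2 window held none and 1 SMAD box. Of 32851 promoter windows of this length, 32.7% held a GC box, 42.2% a SMAD box and 4.46% an AP-1 site. No AP-1 site was found in the 5 windows examined, and none of the 5 held the palindromic SMAD element GTCTAGAC, which 0.167% of all windows did. Whether the promoters of Thbs1, Sirpa, Smad7 and Skil hold this element was not tested. Tgfb1 and Tgfbr1 windows were 75.2% and 74.8% G or C, against 58.4% for Tgfbr2 and a median of 52.4% over all windows. A match is a run of letters, not a shown binding site.

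Thbs1 (ENSMUSG00000040152, chromosome 2, 118111876 to 118127133, plus strand) was more than doubled in KO macrophages. It had 222, 222 and 241 CPM in WT replicates 1 to 3 and 506, 556 and 543 CPM in KO replicates 1 to 3. Every KO library lay above every WT library, and the spread within a genotype was narrow, at 4.74% of the mean in WT and 4.78% in KO. The means were 228 ± 10.8 and 535 ± 25.6 CPM (SD, n = 3), a log2 fold change of 1.23 ± 0.05 (SE) or 2.35-fold. The log2 fold change stayed between 1.20 and 1.27 when each library was left out in turn. Of the called genes, 22 had a log2 fold change at least as high as that of Thbs1, Thbs1 included. Among these Thbs1 was the 1 gene with a WT mean of at least 228 CPM. Both limits are the values of Thbs1 itself, which was chosen for its difference, so nothing is read from this place.

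**Figure D1:**
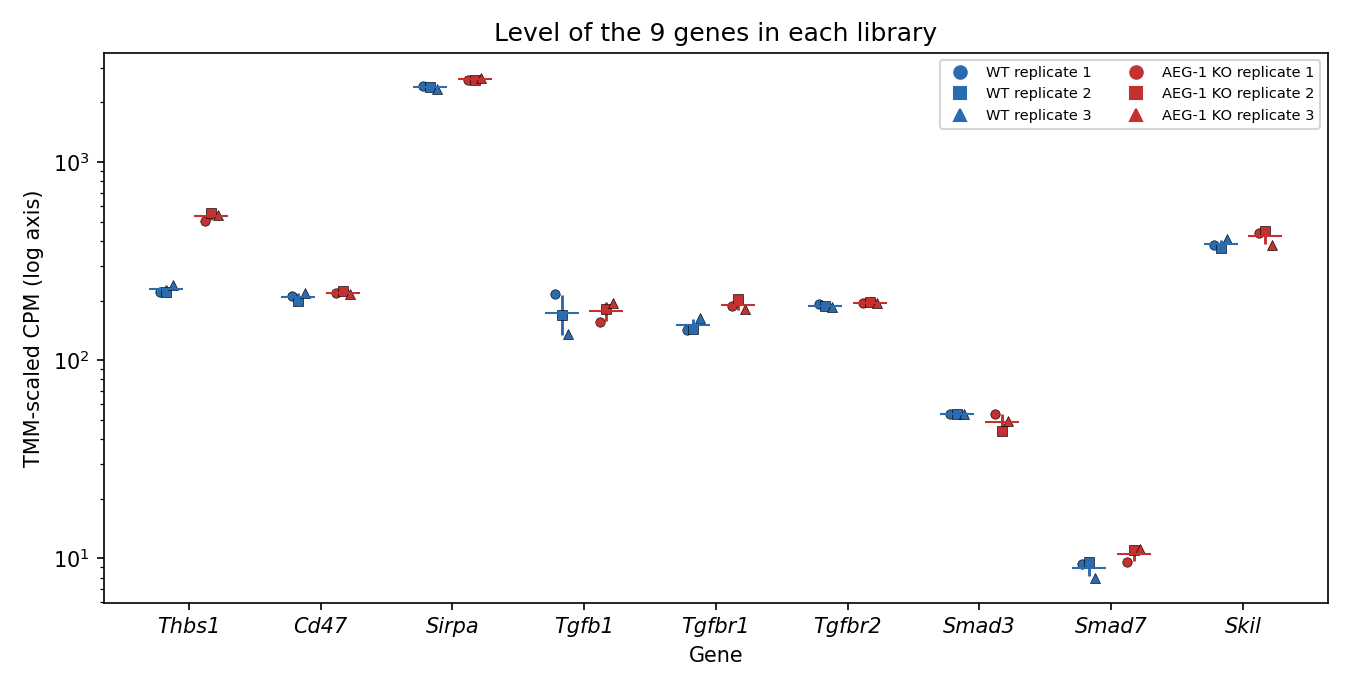
TMM-scaled CPM of the 9 genes (log axis) in each of the 6 libraries (points, shape by replicate), with dashes for the mean and bars for the SD of the 3 libraries, WT in blue and KO in red. Thbs1 lies at 222 to 241 CPM in WT and 506 to 556 CPM in KO, while the Tgfb1 points of the genotypes interleave.

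The other thrombospondin genes were close to silent in these cells. Thbs1 made up 98.9% to 99.0% of the summed level per length of Thbs1, Thbs2, Thbs3, Thbs4 and Comp in WT libraries and 99.4% in each KO library. Thbs2, which encodes a close relative of thrombospondin 1, had 25, 51 and 43 reads in WT and 75, 53 and 63 reads in KO, or 0.809 ± 0.224 and 1.44 ± 0.212 CPM (SD, n = 3). Its groups did not overlap, but it did not pass the test (log2 fold change 0.83 ± 0.22 SE, edgeR's adjusted p = 0.0569). It passed without WT replicate 3, with no filter on low counts and with a trend on GC content and length removed (edgeR's adjusted p = 0.0435, 0.0473 and 0.0302), and in none of the other 12 alternatives. Thbs3 and Comp, the cartilage member of the family, had 11 to 43 reads per library and did not pass (edgeR's adjusted p = 0.45 and 0.428). Thbs4 had no read in any library.

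Markers of other cell types that such a culture could hold were compared in the same libraries. The summed level of 11 platelet and megakaryocyte markers was 67.2 to 77.6 CPM in WT and 102 to 109 CPM in KO. Nearly all of it was Pf4, a platelet chemokine gene, at 65.8 ± 5.45 and 96.7 ± 3.44 CPM (SD, n = 3; edgeR's adjusted p = 0.00128), and 7 of the 11 markers averaged under 1 CPM. Gp1bb, a subunit of a platelet adhesion receptor, had 1 read in all 6 libraries together. That count is uncertain, since Gp1bb shares 1902 exon bases with Sept5 and 867 with Gm49601 on the same strand. The 10 fibroblast and stromal markers summed to 6.24 to 8.05 CPM in WT and 11.3 to 13.6 CPM in KO. The 7 monocyte markers summed to 59.1 to 62.9 and 87.0 to 91.5 CPM, the 9 neutrophil markers to 105 to 129 and 161 to 196 CPM, and the 7 endothelial markers to 12.2 to 13.3 and 14.1 to 16.3 CPM. Of the markers tested, 5 of 7 monocyte, 5 of 7 neutrophil, 5 of 8 stromal, 1 of 7 platelet and 0 of 5 endothelial genes rose and none fell, where 3.31% of all tested genes rose and 3.04% fell. The 8 lymphocyte markers summed to 47.3 to 50.8 CPM in WT and 46.5 to 52.7 CPM in KO, but 6 of the 8 averaged under 1 CPM. Of 5 tested, none passed, with a median log2 fold change of 0.54. In 4 of these 5 the KO values lay wholly above the WT values, where they did in 13.9% of all tested genes. The part of these cells in the Thbs1 level was not tested. In RNA of a whole culture, more cells of a type and more RNA per cell cannot be told apart.

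Compared per length, as CPM per kilobase of merged exons, the 9 genes fell into a wide range, with Sirpa highest and Smad7 lowest in both genotypes. In WT the order was Sirpa at 486, Skil at 39.8, Thbs1 at 37.6, Tgfb1 at 34.4, Cd47 at 33.3, Tgfbr2 and Tgfbr1 at 23.0 each, Smad3 at 9.64 and Smad7 at 1.99. Among neighbours in this order, Skil and Thbs1, Thbs1 and Tgfb1, Tgfb1 and Cd47, and Tgfbr2 and Tgfbr1 overlapped in their library values, while the other neighbours did not. In KO, Thbs1 came next after Sirpa at 88.1 ± 4.22 per kilobase (SD, n = 3), apart from Skil below it at 43.6 ± 3.66. The pair of receptor genes was then separate, with Tgfbr1 at 29.1 ± 1.71 and Tgfbr2 at 23.8 ± 0.131, and only Tgfb1 and Cd47 overlapped, at 35.0 each. Among 16115 tested genes, the level per length of Thbs1 ranked 1619 in WT and 633 in KO. With the length of the longest transcript in place of merged exons, Tgfb1 was at 67.4, Skil at 57.5 and Cd47 at 39.8 in WT. These means lay above Thbs1 at 39.0, so the middle of the order depends on the length used.

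**Figure D2:**
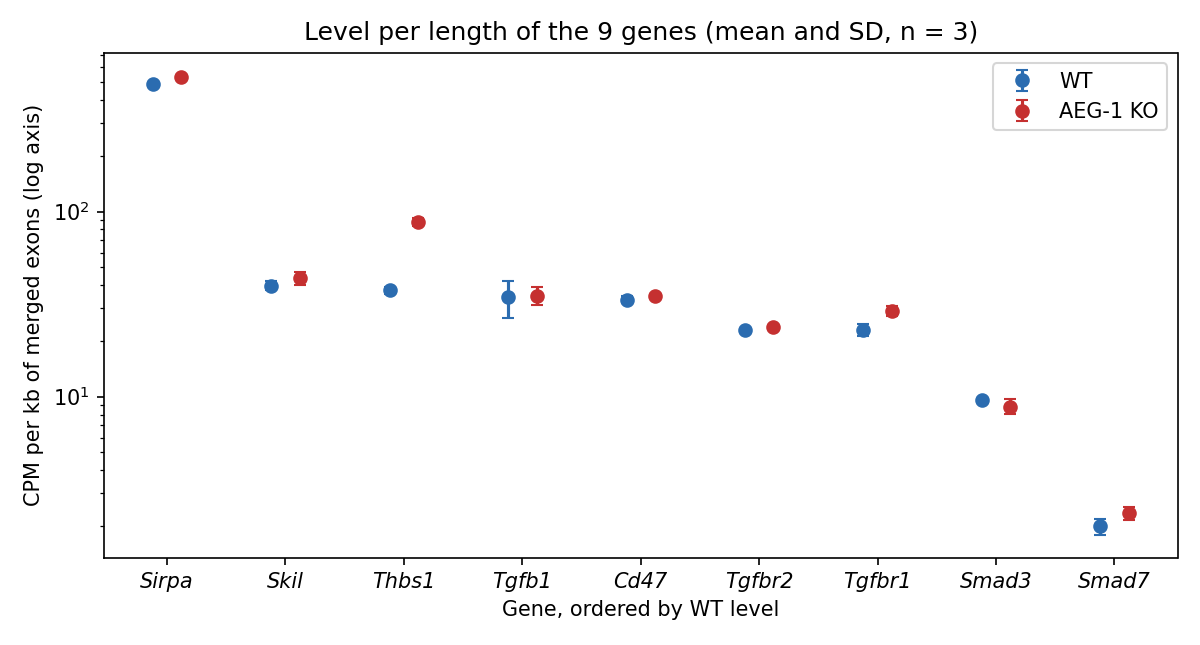
Level per length of the 9 genes as CPM per kilobase of merged exons (log axis, mean and SD, n = 3), in WT (blue) and KO (red), ordered by the WT level. Sirpa lies highest at 486 in WT and Smad7 lowest at 1.99, and Thbs1 goes from 37.6 to 88.1.

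Cd47 and Sirpa differed far less between the genotypes than Thbs1. Cd47 (ENSMUSG00000055447, chromosome 16, 49800533 to 49915010, plus strand) had 211, 199 and 217 CPM in WT replicates 1 to 3 and 219, 224 and 216 CPM in KO replicates 1 to 3. The ranges overlapped, and the log2 fold change was 0.07 ± 0.04 (SE). Sirpa (ENSMUSG00000037902, chromosome 2, 129592835 to 129632228, plus strand) was an abundant transcript of these macrophages, at 2423, 2404 and 2337 CPM in WT and 2589, 2605 and 2656 CPM in KO. Its groups did not overlap, with a log2 fold change of 0.13 ± 0.04 (SE), or 1.10-fold. Per length, Sirpa was 14.6 ± 0.834 times the level of Cd47 in WT and 15.2 ± 0.439 times in KO (SD, n = 3). Thbs1 was 1.13 ± 0.033 times the level of Cd47 in WT and 2.52 ± 0.114 times in KO. With the longest transcript length, Thbs1 and Cd47 were at 39.0 and 39.8 in WT and at 91.5 and 41.8 in KO. Their order in WT thus depends on the length used.

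Of the 11 other genes of the CD47 and SIRPA list, 1 rose, 1 fell and the test was not passed by 9. That made 18.2% called, against 6.35% of all tested genes. The median log2 fold change was -0.04, against 0.01 over all tested genes. Ptpn6, which encodes the phosphatase SHP-1 that binds the inhibitory tail of SIRPA, fell from 543 ± 23.6 to 458 ± 12.8 CPM (mean ± SD, n = 3; log2 fold change -0.25 ± 0.04 SE, edgeR's adjusted p = 0.0121). Its call was lost without WT replicate 2 or KO replicate 2 (edgeR's adjusted p = 0.0591 and 0.0707). It shares 195 exon bases with Gm20531 on the opposite strand. Ptpn11, the gene of SHP-2, had 181 ± 4.46 and 173 ± 0.966 CPM (edgeR's adjusted p = 0.411). Sirpb1b, a relative of Sirpa, rose from 33.3 ± 1.71 to 39.4 ± 0.12 CPM (edgeR's adjusted p = 0.0286). Its value is uncertain, since its transcript is 96.9% identical to Sirpb1a over 1918 bases and 98.7% identical to Sirpb1c over 1551 bases. Its call was lost without any library except WT replicate 3 (edgeR's adjusted p from 0.0807 to 0.136). No such stretch of at least 100 bases at 95% identity linked Sirpa itself to another gene.

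Among 14 other genes for receptors and uptake of thrombospondin 1, 12 were tested, 4 rose, none fell and 8 did not pass. Called were 33.3% of those tested, against 6.35% of all tested genes, and their median log2 fold change was 0.14. Sdc4, a heparan sulfate proteoglycan of the cell surface, rose from 56.8 ± 1.36 to 79.3 ± 1.0 CPM (mean ± SD, n = 3; log2 fold change 0.48 ± 0.04 SE, edgeR's adjusted p = 0.000374). Itgav, the integrin chain that also takes part in releasing TGF-beta, rose from 229 ± 14.5 to 287 ± 15.9 CPM (edgeR's adjusted p = 0.0119). Its call was lost without WT replicate 2 or KO replicate 2 (edgeR's adjusted p = 0.0629 and 0.0871), and it shares 634 exon bases with Gm13684 on the opposite strand. Itga6, an integrin chain for laminin, and Stab2, a scavenger receptor with means of 1.30 and 1.91 CPM, rose, with log2 fold changes of 0.20 and 0.56 (edgeR's adjusted p = 0.0263 and 0.048). A stretch of 326 bases of Itga6 is 100% identical to Gm29397, so some of its reads are uncertain. The call of Itga6 was lost without any library except WT replicate 3 (edgeR's adjusted p from 0.0634 to 0.172), and that of Stab2 without each of the 6 in turn (edgeR's adjusted p from 0.0673 to 0.187). The most abundant receptor genes did not pass: Cd36 had 1474 ± 69.0 and 1553 ± 73.1 CPM, and Lrp1, which clears thrombospondin 1 from the cell surface, 2019 ± 245 and 2210 ± 136 CPM (edgeR's adjusted p = 0.436 and 0.412).

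The ligand gene Tgfb1 had the widest spread of the 9 genes within a genotype and nearly the same mean in both. Tgfb1 (ENSMUSG00000002603, chromosome 7, 25687002 to 25705077, plus strand) had 215, 169 and 136 CPM in WT replicates 1 to 3 and 155, 181 and 194 CPM in KO replicates 1 to 3. The highest and the lowest of the 6 values were both WT. The means were 174 ± 39.7 and 177 ± 19.6 CPM (SD, n = 3), and the log2 fold change was 0.03 ± 0.14 (SE). It was -0.13 without WT replicate 3 and -0.05 without KO replicate 3, so its sign was not fixed. The SD was 22.9% of the mean in WT and 11.1% in KO, against 1.26% and 0.551% for Tgfbr2. In log2 CPM, Tgfb1 lay 0.34 above its genotype mean in WT replicate 1 and -0.32 from it in WT replicate 3. Junb, an immediate-early transcription factor gene, lay 0.69 above and -0.62 from its mean in the same libraries, and Furin, the protease that cleaves the TGF-beta precursor, 0.22 and -0.22. GC content of a gene is here that of its longest transcript. The median of the 1606 genes with the highest GC content, at least 57.3%, lay at 0.17 in WT replicate 1 and -0.19 in WT replicate 3. Tgfb1, at 52.5%, was not among these genes. Thbs1 lay at -0.04 and 0.08 in the same libraries. With a trend on GC content and length removed, the log2 fold change of Tgfb1 was 0.01 ± 0.12 (SE). The part of the library difference by GC content in the Tgfb1 values was not tested.

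**Figure D3:**
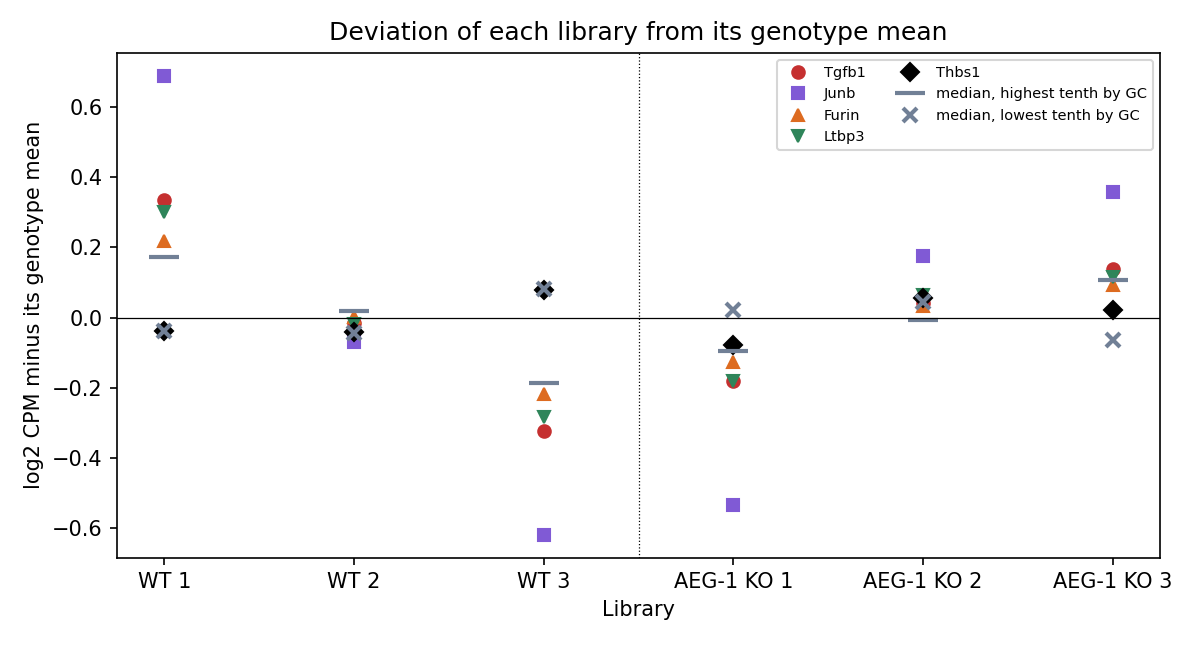
Log2 CPM minus its genotype mean in each library for Tgfb1, Junb, Furin, Ltbp3 and Thbs1 (points) and for the medians of the 10% of tested genes with the highest and with the lowest GC content (dashes and crosses), WT left and KO right of the dotted line. Tgfb1 lies at 0.34 in WT replicate 1 and -0.32 in WT replicate 3, on the same side as the median of the genes of highest GC content, at 0.17 and -0.19.

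Tgfb1 was by far the main TGF-beta isoform. Tgfb2 had 3 to 11 reads per library and was not tested. Tgfb3 had 36 to 52 reads per library, or 0.848 ± 0.022 and 1.04 ± 0.187 CPM, and did not pass (edgeR's adjusted p = 0.422). Of 21 other genes of ligands, latency and activation, 16 were tested, 5 rose, 1 fell and 10 did not pass. The called share was 37.5%, against 6.35% of all tested genes, with a median log2 fold change of 0.28. Among those that rose, Plau, the urokinase that makes plasmin, went from 33.6 ± 1.73 to 42.6 ± 0.889 CPM (mean ± SD, n = 3; log2 fold change 0.34 ± 0.05 SE, edgeR's adjusted p = 0.00646). The small proteoglycan genes Bgn and Dcn, whose proteins bind TGF-beta in matrix, rose as well (edgeR's adjusted p = 0.00789 and 0.00786). Bgn went from 1.94 ± 0.171 to 3.79 ± 0.689 CPM, while Dcn had only 2, 4 and 3 reads in WT and 13, 12 and 12 reads in KO. Mmp9, a gelatinase that can act on latent TGF-beta, fell from 51.0 ± 3.91 to 38 ± 1.53 CPM, n = 3 (log2 fold change -0.42 ± 0.06 SE, edgeR's adjusted p = 0.00552). Dcn is also 1 of the 10 stromal markers, which summed to 6.24 to 8.05 CPM in WT and 11.3 to 13.6 CPM in KO. Without it 4 of 15 rose and 1 fell. The part of stromal cells in these values was not tested.

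The receptor genes differed from each other in their pattern. Tgfbr1 (ENSMUSG00000007613, chromosome 4, 47353222 to 47414931, plus strand), the kinase that phosphorylates SMAD2 and SMAD3, had 142, 144 and 164 CPM in WT replicates 1 to 3 and 188, 203 and 181 CPM in KO replicates 1 to 3. All KO values lay above all WT values, with means of 150 ± 11.9 and 190 ± 11.2 CPM (SD, n = 3) and a log2 fold change of 0.34 ± 0.06 (SE). Tgfbr2 (ENSMUSG00000032440, chromosome 9, 116084293 to 116175360, minus strand), the ligand-binding subunit, had 191, 188 and 187 CPM in WT and 194, 196 and 195 CPM in KO. Its groups did not overlap either, but they were only 1.03-fold apart, with a log2 fold change of 0.05 ± 0.04 (SE). A stretch of the Tgfbr2 transcript of 100 to 171 bases matched 11 other genes at 95% identity or more, so some of its reads are uncertain. Per length, Tgfbr1 was 0.998 ± 0.0887 times the level of Tgfbr2 in WT and 1.23 ± 0.0678 times in KO. With the longest transcript length, Tgfbr1 and Tgfbr2 were at 26.1 and 23.3 in WT and at 33.1 and 24.1 in KO.

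The fit over all genes, in which 6.35% were called, had 2 of the 9 among its calls, Thbs1 and Tgfbr1, and Thbs1 alone without WT replicate 2 or KO replicate 2. The groups did not overlap in 4 of the 9, Thbs1, Sirpa, Tgfbr1 and Tgfbr2, where they did not in 26.8% of all tested genes. These counts restate a choice made with this contrast in view, and nothing is read from them. Without WT replicate 2 or KO replicate 2 the log2 fold change of Tgfbr1 was 0.31 and 0.29.

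None of the 7 other receptor and co-receptor genes rose, Bambi fell and 6 did not pass. The median log2 fold change was -0.01, and 14.3% were called where 6.35% of all tested genes were. Bambi, a decoy receptor without a kinase that damps TGF-beta signalling, went from 11.5 ± 0.649 to 9.33 ± 0.224 CPM (mean ± SD, n = 3; log2 fold change -0.30 ± 0.07 SE, edgeR's adjusted p = 0.0429). Its call was lost without any library except WT replicate 3 (edgeR's adjusted p from 0.0788 to 0.153). The co-receptor gene Eng had 45.2 ± 4.71 CPM in WT and 48.9 ± 3.46 CPM in KO (edgeR's adjusted p = 0.475). Acvrl1, a receptor gene, had 86.7 ± 6.75 CPM in WT and 87.8 ± 4.90 CPM in KO (edgeR's adjusted p = 0.916). Tgfbr3, the betaglycan gene, had 2.16 ± 0.405 and 1.68 ± 0.106 CPM, and Cd109, another co-receptor, 1.92 ± 0.192 and 2.64 ± 0.275 CPM (edgeR's adjusted p = 0.218 and 0.0871). Vasn, whose protein traps TGF-beta, had 25.8 ± 2.25 and 25.6 ± 1.60 CPM, and Tgfbrap1, a receptor-associated protein gene, 72.1 ± 3.14 and 70.9 ± 3.32 CPM (edgeR's adjusted p = 0.962 and 0.853). Some reads of Tgfbr3 and Vasn are uncertain. Tgfbr3 matches Gm43422 at 99.3% identity over 306 bases, and Vasn matches Dnaja3 at 100% over 161 bases.

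Inside the cell, Smad3 was the 1 gene of the 9 with a lower mean in KO. Smad3 (ENSMUSG00000032402, chromosome 9, 63646767 to 63757994, minus strand) had 53.5, 53.5 and 53.3 CPM in WT replicates 1 to 3 and 53.3, 44.2 and 49.5 CPM in KO replicates 1 to 3. The WT values were nearly equal, KO replicate 1 lay among them and replicates 2 and 3 lay below. The log2 fold change was -0.12 ± 0.07 (SE). Smad7 (ENSMUSG00000025880, chromosome 18, 75367529 to 75395935, plus strand), the inhibitory SMAD gene, was the least abundant, at 9.36, 9.62 and 8.0 CPM in WT and 9.59, 11 and 11.1 CPM in KO. Its ranges met at KO replicate 1, and the log2 fold change was 0.23 ± 0.09 (SE) on 346 to 563 reads per library. Skil (ENSMUSG00000027660, chromosome 3, 31095058 to 31122577, plus strand) had 383, 368 and 407 CPM in WT and 437, 449 and 382 CPM in KO. KO replicates 1 and 2 lay above the WT range and replicate 3 within it, with a log2 fold change of 0.13 ± 0.06 (SE).

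The other 26 genes of SMAD signal transduction and its inhibitors were nearly level. In that list 1 rose, 1 fell and the test was not passed by 24. That made 7.69% called, against 6.35% of all tested genes, with a median log2 fold change of 0.03. Wwp1, a ubiquitin ligase that can act on TGFBR1, rose from 179 ± 8.07 to 222 ± 9.57 CPM (mean ± SD, n = 3; log2 fold change 0.31 ± 0.05 SE, edgeR's adjusted p = 0.00664), and lost its call without KO replicate 2 (edgeR's adjusted p = 0.0562). It is uncertain, since Gm13416 shares 1622 bases with it at 96.3% identity. Fkbp1a, the immunophilin that keeps TGFBR1 inactive at rest, fell from 74.6 ± 2.85 to 63.2 ± 3.07 CPM, n = 3 (log2 fold change -0.24 ± 0.05 SE, edgeR's adjusted p = 0.0296). Its call was lost without WT replicate 2, KO replicate 1 or KO replicate 2 (edgeR's adjusted p from 0.0797 to 0.135). Smad2 had 61.9 ± 1.15 and 59.9 ± 1.24 CPM and Smad4, the shared partner, 53.4 ± 0.753 and 58.7 ± 1.66 CPM (edgeR's adjusted p = 0.577 and 0.118).

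**Figure D4:**
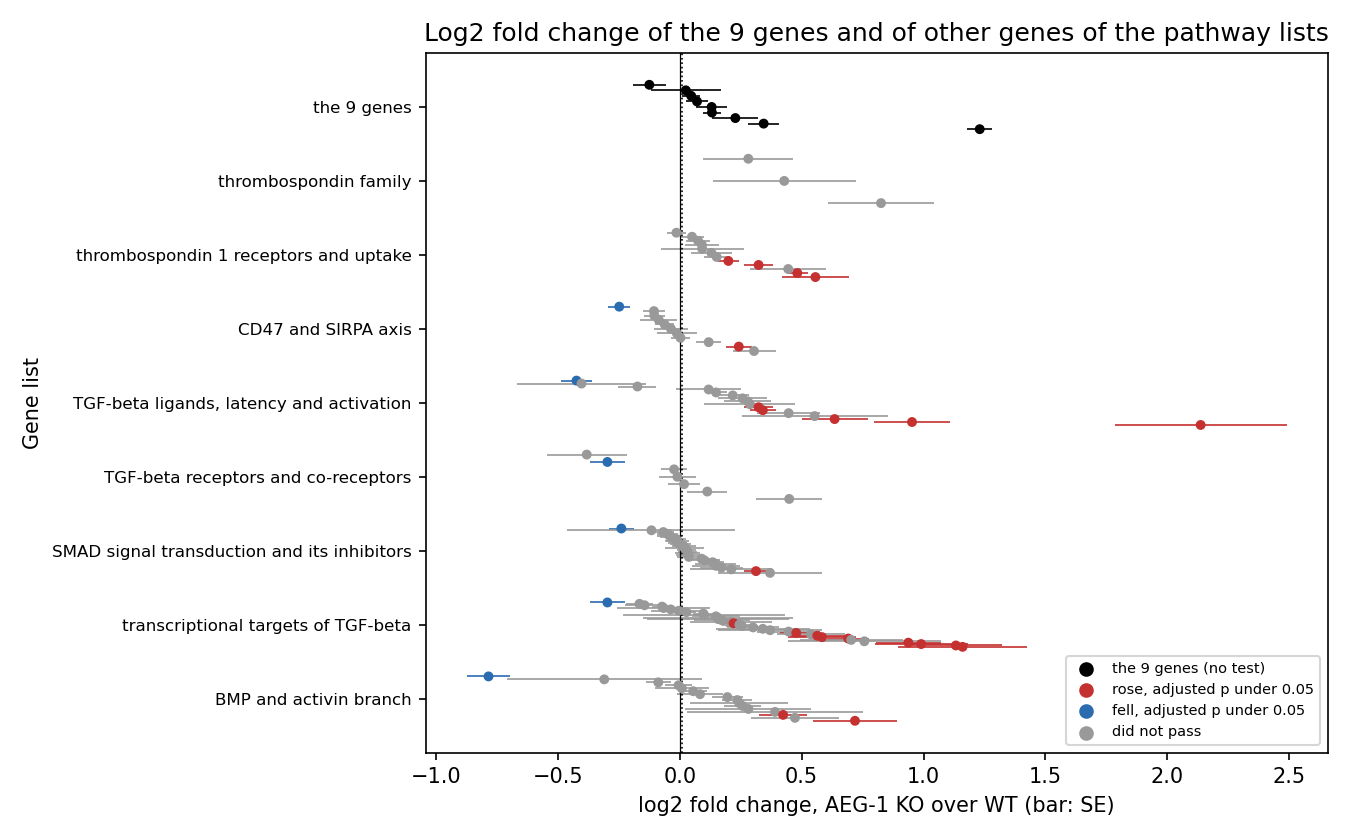
Log2 fold change (KO over WT, bar SE) of the 9 genes (black, no test) and of the other tested genes of each pathway list, in red where they rose, blue where they fell and grey where they did not pass an adjusted p of 0.05 by edgeR, with the median of all tested genes (0.01) as a dotted line. Of the 9 genes Thbs1 stands alone at 1.23, and the SMAD list lies close to 0. In red are 9 of 33 TGF-beta targets, where 3.31% of all tested genes rose.

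Among 35 other genes known as transcriptional targets of TGF-beta, 33 were tested, 9 rose, 1 fell, Bambi, and 23 did not pass. Called were 30.3%, against 6.35% of all tested genes, and the median log2 fold change was 0.24. Bhlhe40, a transcription factor gene, rose from 9.51 ± 0.851 to 15.4 ± 1.07 CPM (mean ± SD, n = 3; log2 fold change 0.69 ± 0.09 SE, edgeR's adjusted p = 0.0019). Col1a2, a fibrillar collagen gene, went from 1.24 ± 0.0889 to 2.37 ± 0.176 CPM, and Ccn2, a matricellular growth factor gene, from 2.07 ± 0.512 to 4.46 ± 0.726 CPM (edgeR's adjusted p = 0.00412 and 0.00833). Ccn2 shares 665 and Bhlhe40 118 exon bases with a gene on the opposite strand. Of the 33, 26 had a log2 fold change above 0, as did 8559 of all 16115 tested genes. The KO values lay wholly above the WT values in 16 and wholly below in 2, against 13.9% and 12.9% of all tested genes. Tgfbi, an abundant target, had 627 ± 22.6 and 597 ± 15.4 CPM and did not pass (edgeR's adjusted p = 0.37). Pmepa1, a feedback inhibitor, had 0.928 ± 0.219 and 1.19 ± 0.211 CPM and did not pass either (edgeR's adjusted p = 0.36). The 3 collagen genes of the list are also stromal markers, and without them 7 of 30 rose and 1 fell. Stromal markers summed to 6.24 to 8.05 CPM in WT and 11.3 to 13.6 CPM in KO, and their part in the target values was not tested.

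The related BMP and activin branch, which uses SMAD1 and SMAD5 or shares SMAD2 and SMAD3, had 26 listed genes. Of these 16 were tested, 2 rose and 1 fell while 13 stayed short of the threshold. That made 18.8% called, against 6.35% of all tested genes. Bmp1, a protease that processes procollagens and frees latent TGF-beta, fell from 5.99 ± 0.209 to 3.48 ± 0.108 CPM (mean ± SD, n = 3; log2 fold change -0.78 ± 0.09 SE, edgeR's adjusted p = 0.00115). The ligand genes Gdf3 and Bmp2, with group means of 1.5 to 5.04 CPM, rose, with log2 fold changes of 0.42 and 0.72 (edgeR's adjusted p = 0.0381 and 0.0402). Gdf3 lost its call without each library in turn (edgeR's adjusted p from 0.0678 to 0.142), and Bmp2 without WT replicate 1 or 2 or KO replicate 2 or 3 (edgeR's adjusted p from 0.067 to 0.164). Some reads of Gdf3 are uncertain, since 104 to 106 of its bases match Man2c1, Cwc25, Itfg2 and Phf7 at 95.2% to 95.3% identity. Over all pathway lists together, 116 genes other than the 9 were tested, 21 rose, 5 fell and 90 did not pass, or 22.4% called where 6.35% of all tested genes were (3.31% higher and 3.04% lower), with a median log2 fold change of 0.13 against 0.01. That count of 26 called genes was 10 without KO replicate 2, 11 without WT replicate 2 and 16 without KO replicate 1 or 3. The lists were chosen with earlier results of these data known, and they hold stromal markers such as Dcn and Col1a2. The called share is therefore a description.

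The genes whose log2 CPM followed Thbs1 most closely over the 6 libraries included Tmem87b, Fbxo32, Pgap1 and Spint1, each with Pearson's r of 0.997. They were picked for this likeness to a gene that splits by genotype, so their levels are a description with no test. Pgap1, of membrane anchor remodelling, had 52.2 ± 1.29 CPM in WT and 77.0 ± 3.12 CPM in KO (SD, n = 3). Fbxo32, a ubiquitin ligase subunit gene, had 2.94 ± 0.1 and 4.49 ± 0.118 CPM, Tmem87b 86.4 ± 1.36 and 99.8 ± 0.994 CPM, and Spint1, a protease inhibitor gene, 5.86 ± 0.0911 and 7.08 ± 0.064 CPM. The 6 points share the genotype split, and 826 tested genes had r of at least 0.9. Of the other 8 genes, Sirpa and Tgfbr1 had r of 0.95 and 0.93 with Thbs1, Tgfb1 0.08 and Smad3 -0.68.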

How the data were processed

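RNA-seq libraries were prepared with the TruSeq kit, per the labels' protocols. The values analysed are raw read counts by Ensembl gene in 6 library columns, as deposited and per the file headers. The submitters' processing notes name mm10 and GRCm38 as builds and Subread, featureCounts 1.4.6-p4, edgeR 3.18.1, cutadapt 1.9 and FastQC 0.11.2 as tools, with no role or order. Not given in the sources used here are the annotation, the strand setting and how reads that match several places were counted, which limits genes with overlapping or near-identical partners.

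Symbols, positions and lengths came from GENCODE M21 (GRCm38), which held 46488 of 46983 identifiers. After filterByExpr (minimum count 10) and TMM scaling, KO was tested against WT by edgeR's quasi-likelihood test (edgeR 4.0.16, R 4.3.3) in a model of genotype alone. P-values had Benjamini-Hochberg (BH) adjustment over 16115 genes, with calls at 0.05. The SE of a log2 fold change is its size divided by the root of F. Log2 CPM used a prior count of 2. In these libraries 1 CPM was 42.6 to 58.5 reads. Replicates differed beyond sampling noise (chi-square per degree of freedom 5.57 to 19.2), so none was a duplicate. Copies were sought with BLAST+ 2.17.0 (95% identity over 100 bases).

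The 9 genes and the gene lists were chosen with earlier results of these data known. Named genes followed a rule: Mtdh, the 9 genes, family, isoform and receptor genes of at least 1 CPM, up to 4 called genes with the smallest p of each other list, and the 5 genes most like Thbs1. Other genes named, such as Cd36, Lrp1, Ptpn11, Tgfbi, Pmepa1, Junb, Furin, Thbs3, Comp, Smad2 and Smad4, were chosen after their values were seen. Some genes that the rule names are not reported here. In simulated data for this comparison over 15959 genes, 88.9% of log2 changes of 1 and 65.7% of changes of 0.5 were recovered, none with the wrong sign, and 18 of 171 calls (10.5%) were false. Alternatives were RLE, upper-quartile and no scaling, other filters, DESeq2 1.42.0, limma-voom (limma 3.58.1), the replicate number as a block, each library left out, other lengths for levels, and, added after seeing the data, removal of a trend on GC content and length (mgcv 1.9.3).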

Additional observations from a re-analysis of the deposited data

How the results depend on the processing

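Leaving out each library in turn, the count of called genes ran from 380 to 1092, that of higher genes from 184 to 518, that of lower genes from 196 to 574, that of the 9 genes from 1 to 2 and that of the other pathway genes from 10 to 26. With the replicate number as a block these counts were 227, 113, 114, 1 and 6. Samples with the same number did not deviate together (r of deviations from the genotype mean from -0.27 to -0.17 over 3 pairs), and the numbers were not taken as pairs. In the genes of highest GC content the median deviation was 0.17 in WT replicate 1 and -0.10 in KO replicate 1. It was -0.19 in WT replicate 3 and 0.11 in KO replicate 3. Such differences enter this r, so it cannot show whether samples of the same number were prepared together. With the trend on GC content and length removed, the counts were 2326 in all, 997 higher, 1329 lower and 44 of the other pathway genes. The cause was not tested. The log2 fold change of Thbs1 ran from 1.20 to 1.27 over 15 alternatives. Of the called pathway genes named here outside the 9, Sdc4, Bgn, Bhlhe40, Col1a2 and Bmp1 passed the test in each of the 15. Signs turned only where no call was made: with 1 library left out, Tgfb1 ran from -0.13 to 0.20, Acvrl1 from -0.0465 to 0.0577 (-0.0034 with the GC trend removed), Vasn from -0.0701 to 0.0503 and Tgfbrap1 from -0.0515 to 0.0085. Depth limits Dcn, Tgfb2 and the other thrombospondin genes, with few reads per library.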

Other observations

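Tgfb1 was highest in WT replicate 1 and KO replicate 3 and lowest in WT replicate 3 and KO replicate 1, and other genes around it had the same highest and lowest libraries. These included Furin and Ltbp3 of the latent complex, the receptor genes Eng and Acvrl1, Smad6, Ski, and the immediate-early or BMP-responsive genes Jun, Junb, Id1 and Id3. Junb had 211, 125 and 85.4 CPM in WT replicates 1 to 3 and 105, 171 and 194 CPM in KO replicates 1 to 3, a wider range within each genotype than the distance between the genotype means of 141 and 157 CPM. Of 116 tested pathway genes other than the 9, 22 (19.0%) had this pattern, as did 10.5% of all 16115 tested genes and 47.3% of the 1606 genes of highest GC content. The pattern was picked after the values were seen and was not tested. Among the 9 genes, Sirpa was the 1 other gene with it.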
